A study of Mus musculus with 6 samples.

Results

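The 4 arrays of splenic B cells from mice with a defective Btk, 2 of Xid and 2 of Btk KO, were treated as 1 group and set against the 2 arrays of wild type CBA mice; these are all 6 arrays of the series. RNA of whole splenic B cells from adult mice was measured on Affymetrix MG_U74Av2 arrays, with 1 scaled intensity per probe set. Xid mice are the CBA/N strain with the substitution R28C in Btk, and the Btk KO line came from mice labelled Btk KO/SW129 that were crossed back to CBA for 9 generations. The labels do not say whether an RNA came from 1 mouse or from a pool, nor how the B cells were purified. The groups also differ in strain history, so Btk and other inherited differences cannot be told apart, and both lines are compared with the same 2 CBA arrays.

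Btk is a kinase of the Tec family that is recruited to the membrane by its pleckstrin homology domain and activates phospholipase C gamma once the B cell receptor has bound antigen. The calcium and protein kinase C signals that follow activate NFAT and NF-kB factors, which control genes of survival and division. The Xid substitution lies in the pleckstrin homology domain and impairs membrane binding of a protein that is still made, while a knockout removes the protein. In mice of both kinds mature B cells are fewer, B-1 cells are largely missing and responses to some antigens are weak.

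A probe set was counted as higher in the defective lines when all 4 of their arrays lay above both CBA arrays, and as lower when all 4 lay below both. Of 12422 probe sets that are not controls, 7453 passed a filter on low intensity. Differences are on the scale of log2(intensity + 6), and the pooled difference is the mean of the Xid and Btk KO differences from CBA, given with its standard error where it is tested. The number 1 or 2 of an array marks its set of 3 arrays, which is called its run here. The second set used RNA of new mice and another chip lot. Fits were made without and with the run as a block. One array differed in RNA quality. For Btk KO replicate 1 the ratio of 3' over 5' signal was 10.4 in Gapdh and 3.61 in beta-actin, while no other array exceeded 1.61 and 1.66. This array was also hybridised on a separate day from CBA and Xid replicate 1. Within run 1 its day and RNA quality therefore cannot be told apart from the line. The median intensity of the arrays lay between 32.65 and 37.7, and precision is limited by having 2 arrays per group.

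Transcripts that differed in both lines included genes of red pulp macrophages on the higher side and the channel gene Mcoln2 on the lower side. Immunoglobulin segments, the survival gene Bcl2 and the calcium-dependent factor Nfatc1 were also lower. Among these last, calls were made only in the fit with the run as a block. All 4 defective arrays lay above both CBA arrays for 732 probe sets (9.82% of those kept) and below both for 545 (7.31%). They stand for 632 and 466 named genes. Without the filter the counts were 1203 and 717 of 12422. Most of these differences were small, with a median pooled difference of 0.51 for the higher probe sets and -0.41 for the lower. A size of at least 1 was reached by 121 higher and 45 lower probe sets, and a size of at least 2 by 3 and 5. The higher probe sets were dimmer in CBA, with a median intensity of 53.7, than the lower ones at 164.25, and all kept probe sets stood at 95.15.

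The test of the pooled difference called far fewer probe sets. With limma at an adjusted p below 0.05, 7 rose (0.0939%) and 4 fell (0.0537%) without the block, and 549 had an unadjusted p below 0.05. With the block 96 rose (1.29%) and 48 fell (0.644%), all 11 of the calls without it among them, and 946 had an unadjusted p below 0.05. Of these calls, 80 of the 96 and 34 of the 48 had all 4 defective arrays on 1 side of CBA. Leaving out either CBA array or either Xid array left 0 calls in limma without the block, with 325 to 462 probe sets at an unadjusted p below 0.05. Without Btk KO replicate 1 there were 14 calls, and without Btk KO replicate 2 there were 39. With the block and without Btk KO replicate 1, 95 rose and 70 fell, and 126 of these were among the 144 calls with all arrays.

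Btk itself was low in 1 line only. It read 874.1 and 749.8 in CBA, 841.0 and 643.9 in Xid and 276.1 and 173.6 in Btk KO. Only the Btk KO arrays stood clear of CBA, and Xid replicate 1 lay between the CBA arrays. The pooled difference was -0.997 ± 0.23 (limma adjusted p = 0.020 with the block, 0.23 without). Btk KO differed from Xid by -1.72, with a 95% interval from -2.35 to -1.09 in the fit without the block (limma adjusted p = 0.16), and the difference passed with the block (0.014). Another Btk probe set was at 7.5 or less on every array and did not pass the filter. It is not known here whether these probes read the deleted stretch.

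Among the genes whose pooled difference was called higher without the block were 3 that are known from macrophages of the spleen. For each, on the probe set read out first here, the limma adjusted p without the block was 0.17 for Xid alone against CBA. For Btk KO alone it was 0.025. Mrc1, the mannose receptor of macrophages, read 37.4 and 38.4 in CBA, 99.3 and 145.6 in Xid and 287.2 and 246.5 in Btk KO. The 3 groups did not overlap, and the pooled difference was 2.08 ± 0.22 (limma adjusted p = 0.025). Spic, a transcription factor on which red pulp macrophages depend, read 54.5 and 75.7 in CBA, 162.8 and 201.4 in Xid and 360.0 and 332.2 in Btk KO. Both Xid arrays lay between the other groups, and the pooled difference was 1.87 ± 0.20 (limma adjusted p = 0.025). Vcam1, an adhesion molecule that binds the integrin VLA-4, read 304.7 and 369.9 in CBA, 770.5 and 1064.4 in Xid and 1765.9 and 1532.0 in Btk KO. The groups again stood apart, with a pooled difference of 1.84 ± 0.20 (limma adjusted p = 0.025). A dimmer Vcam1 probe set rose by 1.91 and a further one, at 0.88, overlapped with CBA. In RNA from a mixture of cells, more cells of a type and more RNA per cell cannot be told apart.

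The other genes called without the block were Tspan4, Abcc3 and Cadm1. Tspan4, a tetraspanin, read 18.2 and 10.6 in CBA, 92.7 and 88.6 in Xid and 130.2 and 158.2 in Btk KO. The groups did not overlap. Its pooled difference of 2.58 ± 0.24 (limma adjusted p = 0.023) was the largest among the 732 higher probe sets, and since its CBA level is low the size depends on the pseudocount. Abcc3, an exporter of organic anions, read 53.4 and 47.8 in CBA, 149.8 and 179.9 in Xid and 221.0 and 197.3 in Btk KO. All defective arrays were clear of CBA, and it rose by 1.76 ± 0.19 (limma adjusted p = 0.025). Cadm1, an adhesion molecule of the immunoglobulin superfamily, read 210.7 and 348.7 in CBA, 768.2 and 903.0 in Xid and 1259.5 and 1148.8 in Btk KO. It rose by 1.86 ± 0.23 on this probe set (limma adjusted p = 0.040), whose type may also pick up similar sequences. Its other 2 probe sets, at 1.28 and 0.79, passed in neither fit, and the one at 0.79 overlapped with CBA.

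The next 6 higher genes by p passed with the block alone. They were Gatm of creatine synthesis (pooled difference 1.54), the iron regulator Hfe (1.84), the growth factor Igf1 (1.79), Glipr2 (1.78), the protease inhibitor Serpinb6a (1.57) and the metalloprotease gene Adamdec1 (1.92). Hfe read 30.0 and 38.0 in CBA, 123.0 and 130.4 in Xid and 115.6 and 185.3 in Btk KO. The lines overlapped with each other and not with CBA. Glipr2 read 26.3 and 22.6 in CBA, 103.6 and 134.6 in Xid and 67.8 and 98.0 in Btk KO, so here both Xid arrays lay above both Btk KO arrays. Igf1 showed the difference on 1 of its 2 probe sets, and the brighter one, at 0.08, overlapped with CBA. Adamdec1 stood at 7.3 and 7.2 in CBA, so its size depends on the pseudocount.

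On the lower side Mcoln2 was the 1 named gene that fell without the block. Mcoln2, a cation channel of endosomes and lysosomes, read 227.9 and 224.3 in CBA, 58.6 and 66.6 in Xid and 57.2 and 47.0 in Btk KO. The lines lay close together and far below CBA, with a pooled difference of -1.88 ± 0.19 (limma adjusted p = 0.025). The other 3 calls were probe sets without a symbol, all with Xid below Btk KO. The first of these read 1521.1 and 1393.8 in CBA, 76.0 and 67.1 in Xid and 784.1 and 447.5 in Btk KO. The other 2 had pooled differences of -1.76 and -2.16. The 3 have consecutive identifiers and the same order of groups, so they may read the same transcript and need not be independent calls.

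Further lower genes passed with the block alone, and the lines did not share each change evenly. Ephx1, the microsomal epoxide hydrolase, read 142.4 and 230.2 in CBA, 12.9 and 41.5 in Xid and 8.8 and 14.6 in Btk KO. The defective arrays were all far below CBA, with a pooled difference of -3.03 ± 0.42 (limma adjusted p = 0.0054 with the block), and their low levels make the size depend on the pseudocount. A probe set that carries the symbol Notch4, but whose type may also pick up similar sequences, read 204.5 and 356.8 in CBA, 39.0 and 21.6 in Xid and 68.7 and 86.5 in Btk KO (pooled -2.35). Ctse, the endosomal protease cathepsin E, read 781.8 and 896.7 in CBA, 31.5 and 91.8 in Xid and 701.5 and 703.7 in Btk KO. All 4 arrays lay below CBA, yet the difference from CBA was -3.80 in Xid and -0.25 in Btk KO. The other 2 Ctse probe sets overlapped with CBA, at -0.19 and 0.19.

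Bcl2 and Jchain were also lower in both lines. Bcl2, an inhibitor of apoptosis, read 434.8 and 399.0 in CBA, 253.2 and 169.9 in Xid and 195.5 and 164.6 in Btk KO. The groups stood apart from CBA, and it fell by 1.09 with the block (limma adjusted p = 0.020). A further Bcl2 probe set fell by 0.94 with the block, and another, at -0.74, overlapped. Jchain, which joins units of IgM and IgA, read 883.9 and 1165.6 in CBA, 535.0 and 366.4 in Xid and 503.4 and 400.9 in Btk KO. The lines overlapped with each other below CBA, and the pooled difference was -1.18 (limma adjusted p = 0.034 with the block). The chemokine receptor gene Ccr1 (-1.51), the chemokine scavenger Ackr2 (-1.62), the zinc finger gene Hivep2 (-1.13) and Cd200 (-1.21), whose product dampens myeloid cells, fell with the block. Myo1e, a motor protein gene at -1.30, passed in neither fit.

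NFAT and NF-kB act below Btk, and the PU box is bound by factors of the Ets family in B cells and macrophages. The promoters of the 12 higher and 12 lower genes with the smallest p were therefore searched on both strands for 3 motifs, in RefSeq promoter sequences of build GRCm38.p6 that held 8 of the higher and 10 of the lower genes. The NFAT core TGGAAA was in a promoter of 2 of the 8 higher genes (Tspan4 and Igf1) and 3 of the 10 lower genes. Of 32851 promoters 21.43% held it. Some genes have several promoters and count if any matches, so shares of genes and of promoters are unlike measures. The PU box GAGGAAGT was in 0 of these genes, against 3.202% of all promoters, and an NF-kB consensus motif was in 0, against 0.4109%. The lower promoters with the NFAT core are printed to show the match in its context. Each is written on the strand of its gene, and capitals mark the core, which lies on the opposite strand in all 3 and so reads as its reverse complement.
Jchain: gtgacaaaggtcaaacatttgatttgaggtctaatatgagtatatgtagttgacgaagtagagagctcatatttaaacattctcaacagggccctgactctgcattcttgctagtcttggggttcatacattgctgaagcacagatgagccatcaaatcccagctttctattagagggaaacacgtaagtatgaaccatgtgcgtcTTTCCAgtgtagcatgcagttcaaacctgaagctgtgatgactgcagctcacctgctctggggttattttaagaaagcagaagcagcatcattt
Ccr1: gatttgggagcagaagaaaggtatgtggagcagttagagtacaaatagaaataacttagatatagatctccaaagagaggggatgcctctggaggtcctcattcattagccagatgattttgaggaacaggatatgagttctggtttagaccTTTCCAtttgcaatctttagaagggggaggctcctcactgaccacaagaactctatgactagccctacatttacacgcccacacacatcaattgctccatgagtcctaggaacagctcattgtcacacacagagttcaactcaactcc
Ackr2: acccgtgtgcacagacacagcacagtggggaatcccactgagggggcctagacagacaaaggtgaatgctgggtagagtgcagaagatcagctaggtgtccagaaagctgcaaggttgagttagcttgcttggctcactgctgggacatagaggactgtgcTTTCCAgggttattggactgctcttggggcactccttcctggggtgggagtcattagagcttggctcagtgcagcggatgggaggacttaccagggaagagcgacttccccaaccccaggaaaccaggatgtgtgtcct
The Jchain window is chr5:88527848-88528147 on the minus strand, and its match begins at position -44 from the start site. The Ccr1 window is chr9:123968643-123968942 on the minus strand, with the match at -98, and the Ackr2 window is chr9:121898105-121898404 on the plus strand, with the match at -89. The matches are letters in a window, at shares of 3 in 10 lower and 2 in 8 higher genes, and binding was not measured.

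**Figure D1:**
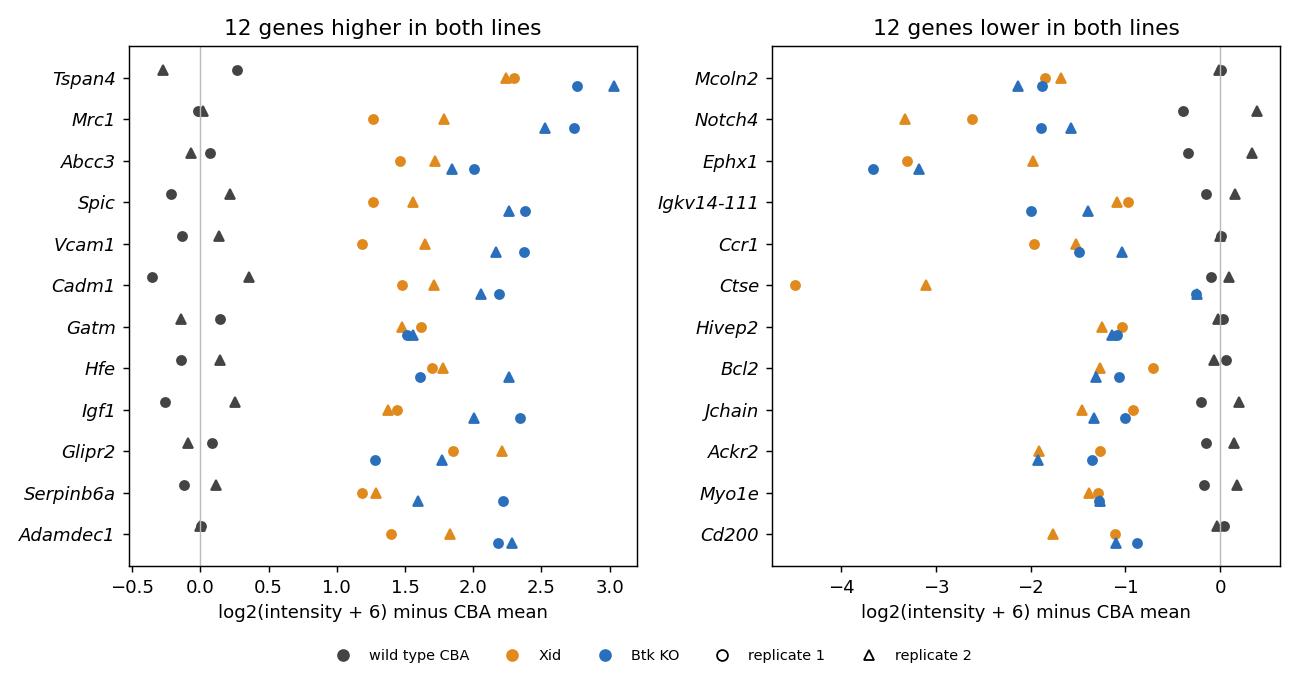
Each point is 1 array, at its log2(intensity + 6) minus the mean of the 2 CBA arrays, for the 12 higher and the 12 lower named genes with the smallest p; dark grey is CBA, orange Xid and blue Btk KO, circles are replicate 1 and triangles replicate 2. In Mrc1, Spic and Vcam1 the blue points lie beyond the orange ones, in Gatm, Hivep2 and Jchain the colours mix, and in Ctse the blue points lie near CBA while Xid is at -3.80 on average.

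The order of the 3 groups was the second question. Over all kept probe sets both Btk KO arrays lay above both Xid arrays in 1059 (14.2%) and below both in 917 (12.3%). Among the 732 higher probe sets both Btk KO arrays lay above both Xid arrays in 238, or 32.51%, and below both in 63, or 8.607%. Among the 545 lower probe sets both Btk KO arrays lay below both Xid arrays in 126, or 23.12%, and above both in 41, or 7.523%. In the other 431 and 378 the lines overlapped. As shares of all kept probe sets, the order CBA, Xid, Btk KO was seen in 3.19% rising and 1.69% falling, and the order CBA, Btk KO, Xid in 0.845% rising and 0.55% falling.

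The mean of Btk KO lay farther from CBA than the mean of Xid in 528 of the 732 higher and 382 of the 545 lower probe sets (72.13% and 70.09%). Over all kept probe sets the mean of Btk KO lay above that of Xid in 50.05% and below it in 49.95%. For the higher set the median difference from CBA was 0.45 in Xid and 0.57 in Btk KO, and for the lower set -0.34 and -0.45. Both lines share the CBA arrays, so these values stand side by side and are not tested. Within run 1, which holds the Btk KO array with the Gapdh ratio of 10.4, Btk KO lay farther out in 71.58% of the higher and 68.07% of the lower set, while over all kept probe sets it lay above Xid in 52.01% and below in 47.85%. Within run 2 the shares were 64.75% and 59.45%, against 48.41% and 51.32% over all. The medians in that run were 0.43 in Xid and 0.51 in Btk KO for the higher set. In both runs at once Btk KO lay farther out in 366 of the 732 (50%) and 222 of the 545 (40.73%), against 27.24% above and 26.62% below over all kept probe sets.

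**Figure D2:**
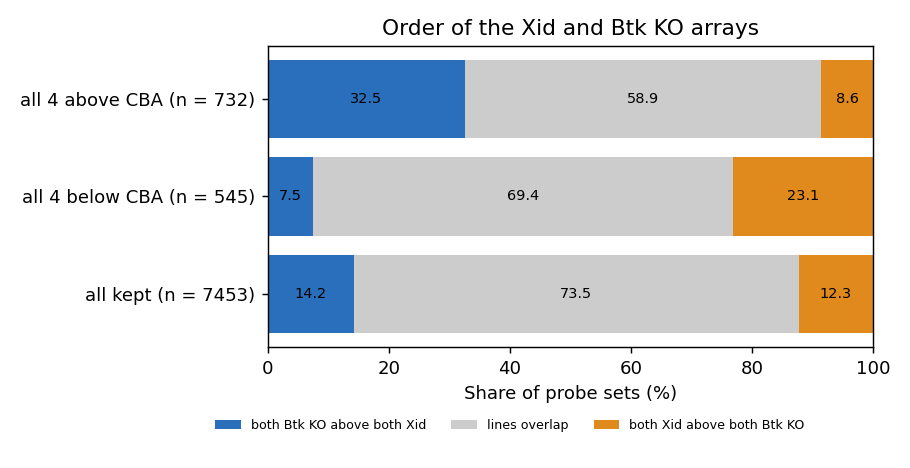
Stacked bars give the share of probe sets (in percent) in which both Btk KO arrays lay above both Xid arrays (blue), the lines overlapped (grey) or both Xid arrays lay above both Btk KO arrays (orange), for the 732 higher, the 545 lower and all 7453 kept probe sets. The blue share is 32.51% in the higher set and 7.523% in the lower set, against 14.2% of all.

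Tested directly, few probe sets separated the lines. For Btk KO against Xid limma called 2 higher (0.0268%) and 1 lower (0.0134%) without the block. The unadjusted p was below 0.05 for 269 probe sets. With the block it called 8 higher (0.107%) and 6 lower (0.0805%). The unadjusted p was below 0.05 for 545. Of these 14, 4 lay on 1 side of CBA in all defective arrays. They were Ctse and the 3 probe sets without a symbol that fell without the block, which may read the same transcript. In each of the 4 Xid lay farther out. So 0 of the probe sets in the order CBA, Xid, Btk KO were called between the lines by limma with or without the block.

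The rising genes with the smallest p between the lines included macrophage genes, Slpi of the neutrophil list and Bpgm of red cells. The rising order was seen in 10 of 27 macrophage, 1 of 14 neutrophil and 2 of 18 erythroid genes. Over all named genes it was seen in 186 of 5596. Slpi, a secreted inhibitor of neutrophil proteases, read 215.1 and 180.7 in CBA, 303.4 and 278.3 in Xid and 574.3 and 579.0 in Btk KO. The difference between the lines was 0.97, with a 95% interval from 0.53 to 1.42 in the fit without the block (limma adjusted p = 0.52 without the block, 0.15 with it). Another Slpi probe set rose by 1.61 with the block, and a dim one, at 0.06, overlapped with CBA. Tgfbi, a matrix protein induced by TGF-beta, read 41.4 and 40.6 in CBA, 63.6 and 89.9 in Xid and 132.3 and 172.9 in Btk KO. Its pooled difference of 1.27 passed with the block. Bpgm, which makes the red cell metabolite bisphosphoglycerate, read 89.5 and 102.7 in CBA, 118.2 and 134.5 in Xid and 486.3 and 240.6 in Btk KO. It was highest on the Btk KO array of run 1 and passed in neither fit. Mrc1, Spic, Vcam1, the membrane protein gene Itm2c and 1 of 2 probe sets of the lipid kinase gene Pip4k2c completed the 8 rising genes. The other Pip4k2c probe set differed from CBA by -0.01.

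The falling genes by the same rule included kappa light chain segments and 1 gene of antigen presentation, H2-Ab1. Of 21 genes of MHC class II and antigen presentation 1 was in the falling and 2 in the rising order. Over all named genes these orders held 92 and 186 of 5596. H2-Ab1, a chain of MHC class II, read 1486.8 and 1676.6 in CBA, 1374.2 and 1414.4 in Xid and 952.9 and 997.2 in Btk KO. The groups did not overlap, but the pooled difference of -0.44 passed in neither fit. The kappa light chain segment Igkv14-111 read 412.8 and 511.9 in CBA, 230.7 and 213.4 in Xid and 110.8 and 170.5 in Btk KO on 1 of its 3 probe sets. It fell there by 1.36 with the block (limma adjusted p = 0.016), and the other two, at -1.57 and -0.05, overlapped with CBA. Igkv6-14 read 2807.5 and 3777.5 in CBA, 2224.7 and 2405.2 in Xid and 936.7 and 1776.7 in Btk KO without passing. Igkv2-112 fell with the block (-1.16). Ryr1, Dnttip2, Dctpp1 and Coro1a, a regulator of actin, stood between -0.63 and -0.34 and did not pass. Related variable segments can share signal, so a single segment is uncertain.

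Some transcripts differed from CBA by a like amount in both lines. By the smallest difference between the lines at a pooled size of at least 1, these were Tub, Abi1, Gatm, St3gal5 and Ctsk on the higher side and Faah, Lysmd2, Jchain, Hivep2 and Ackr2 on the lower. Gatm read 35.7 and 28.2 in CBA, 109.8 and 99.2 in Xid and 102.2 and 105.2 in Btk KO. The difference between its lines was -0.01, with a 95% interval from -0.56 to 0.54. St3gal5, the sialyltransferase that makes ganglioside GM3, read 227.9 and 209.1 in CBA, 434.8 and 461.1 in Xid and 523.6 and 403.1 in Btk KO. It rose by 1.03 with the block (limma adjusted p = 0.020), and the interval between the lines ran from -0.44 to 0.51. Hivep2 read 120.5 and 116.2 in CBA, 54.6 and 46.3 in Xid and 52.3 and 50.2 in Btk KO, with an interval between the lines from -0.51 to 0.56. For these 3 genes the intervals reach 0.56 in size. They were wider for Jchain (-0.59 to 0.63), Ackr2 (-0.92 to 0.81) and the dimmer genes, up to -1.29 to 1.43 for Ctsk, so a like mean does not show that the lines act alike. Tub, Abi1, Ctsk, Faah and Lysmd2 passed in neither fit.

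**Figure D3:**
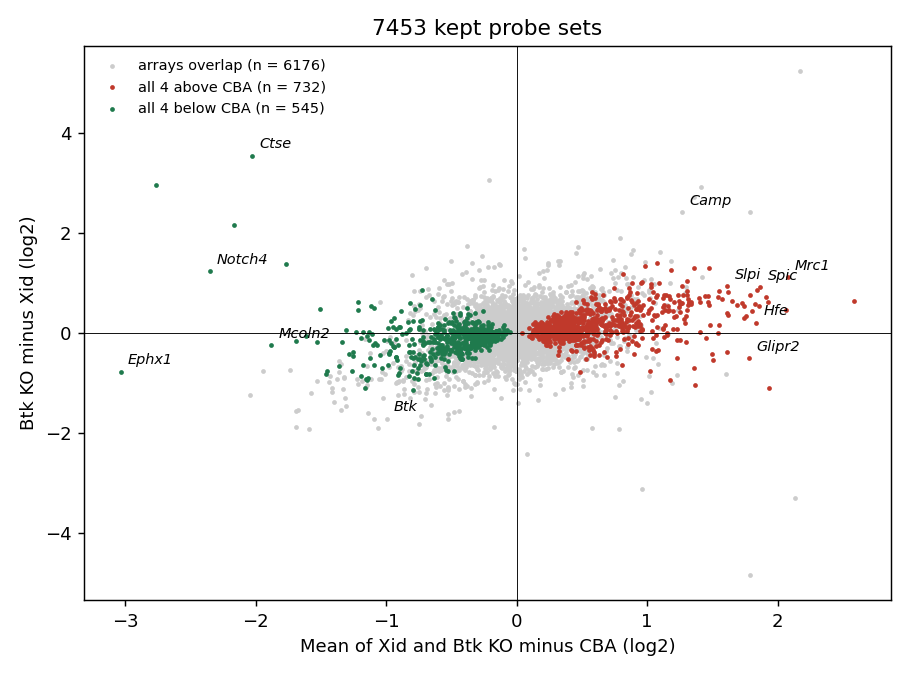
Each point is 1 of 7453 kept probe sets, with the mean of Xid and Btk KO minus CBA on the x axis and Btk KO minus Xid on the y axis (both log2 differences); red marks the 732 probe sets with all 4 defective arrays above CBA, green the 545 with all 4 below, grey the rest. Ctse and Notch4 lie in the upper left, where Xid is the farther line, Mrc1 and Spic in the upper right, where Btk KO is, and Btk itself in the lower left, in grey.

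The rule had values close to its edge. Among genes with a pooled size of at least 1, Ctsk (33.6 and 5.1 in CBA, lowest defective array 34.6) and Klk1b1 (35.2 and 78.2, lowest 80.9) lay just inside on the higher side, and Timp1 (87.7 and 50.7, lowest 87.3) and Ctsw (6.3 and 11.3, lowest 10.7) just outside. On the lower side Mxd3 (33.3 and 60.9, highest 30.0) and Hmces (89.6 and 94.9, highest 80.9) lay just inside. Ighv14-2 (938.8 and 1812.7, highest 940.1) and Cop1 (86.1 and 115.9, highest 88.7) lay just outside. This Ighv14-2 probe set fell with the block (-1.74, limma adjusted p = 0.013), so the overlap rule and the test did not choose the same probe sets.

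A small number of probe sets lay on opposite sides of CBA in the 2 lines, 35 with Xid above and Btk KO below and 57 the other way. Ifi202b, an interferon-inducible gene, read 35.2 and 27.6 in CBA, 1.5 and 10.6 in Xid and 82.5 and 91.7 in Btk KO. The difference between the lines was 3.06 (limma adjusted p = 0.046 with the block) while the pooled difference was -0.21. The Xid levels are low, so the size depends on the pseudocount.

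Macrophage and red pulp genes had the largest median difference of the 25 gene lists, in which each gene stands by its brightest probe set. The lists were chosen with earlier results of these data known, so their counts and shares are descriptions and not tests. Of the 27 measured members, 18 had all 4 defective arrays above CBA and 0 below, against 573 and 418 of 5596 named genes. Of the 27, 3 rose without the block and 16 with it, against 6 (0.107%) and 78 (1.39%) of all named genes. The median difference from CBA was 1.11 for both lines together, 0.92 in Xid and 1.32 in Btk KO, against 0.01 over all named genes. Sirpa, a receptor for CD47, read 124.6 and 154.7 in CBA, 246.2 and 338.9 in Xid and 439.0 and 441.7 in Btk KO. Csf1r, the receptor of a macrophage growth factor, read 149.0 and 319.7 in CBA, 551.8 and 822.7 in Xid and 750.4 and 917.2 in Btk KO, and is named after its values were seen. Both rose with the block, while 2 dimmer Sirpa probe sets overlapped with CBA (-0.30 and 0.46). Of the 9 members that overlapped with CBA, C1qa read 294.5 on the Btk KO array of run 1 and 1975.6 on that of run 2. Lyz2, a lysozyme of myeloid cells, read 195.2 and 151.0 in CBA, 140.7 and 301.4 in Xid and 275.6 and 343.4 in Btk KO. The summed intensity over the 35 list genes on the array was 4583.5 and 6499.9 in CBA, 9144.5 and 13767 in Xid and 13794 and 18250 in Btk KO, with no list gene at 0 on all arrays.

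Genes of scavenging, complement and iron handling shared members with that list. Of 13 measured, 8 had all 4 defective arrays above CBA (10.2% of all named genes did) and 6 rose with the block (1.39%). Their median was 0.95. Hmox1, which breaks down heme, read 750.1 and 978.4 in CBA, 1355.0 and 1866.4 in Xid and 2751.8 and 2939.7 in Btk KO. C1qb, a chain of complement C1q, read 154.3 and 256.1 in CBA, 409.7 and 732.8 in Xid and 650.7 and 1055.1 in Btk KO. Both rose with the block, by 1.31 and 1.73, and a dimmer C1qb probe set overlapped with CBA (0.28). The iron storage gene Fth1 and the transferrin receptor gene Tfrc overlapped with CBA, at 0.21 and -0.24. Of 31 lysosome genes 12 had all 4 arrays higher and 1 lower, against the same background of 10.2% and 7.47%, with a median of 0.22. The cathepsin genes Ctsd (1.34) and Ctsb (0.92) rose with the block and Mcoln2 fell.

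NK and erythroid genes had larger medians in Btk KO than in Xid. Of 15 NK and cytotoxic genes 7 had all 4 arrays higher (10.2% of all named genes did), with medians of 0.42 in Xid and 1.18 in Btk KO. Gzma, a granzyme, read 86.0 and 128.9 in CBA, 144.7 and 291.4 in Xid and 218.3 and 560.2 in Btk KO. With Klra3, Klrd1 and Ccl5 it rose with the block, so 4 of the 15 did, against 1.39% of all named genes. The list summed to 692.3 and 1285.4 in CBA, 1002.2 and 1803.1 in Xid and 1588.2 and 3615.9 in Btk KO. Of 18 erythroid genes 3 had all 4 arrays higher, a share closer to that of all named genes, with medians of 0.21 in Xid and 1.22 in Btk KO. The hemoglobin gene Hba-a1 read 3777.1 and 5195.0 in CBA, 6333.9 and 4641.4 in Xid and 13055.0 and 6371.9 in Btk KO. It was highest on the Btk KO array of run 1 and overlapped between CBA and Xid.

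Neutrophil and T cell genes had smaller medians. Of 14 neutrophil genes 3 had all 4 arrays higher (again against 10.2% of all named genes), with medians of 0.28 in Xid and 0.43 in Btk KO. With the block 3 rose (Slpi, Camp and S100a9), against 1.39% of all named genes. Camp, an antimicrobial peptide gene, read 39.4 and 58.8 in CBA, 56.3 and 45.1 in Xid and 271.1 and 324.2 in Btk KO, so its pooled call came from 1 line. S100a9 read 16.8 and 29.5 in CBA, 49.9 and 26.1 in Xid and 194 and 252.6 in Btk KO, so Xid overlapped with CBA there too. S100a8, a subunit of calprotectin, read 50.9 and 64.5 in CBA, 65.4 and 50.0 in Xid and 267.1 and 629.3 in Btk KO. The neutrophil list summed to 857.5 and 806.4 in CBA, 1072.5 and 940.8 in Xid and 2020 and 2725.2 in Btk KO. Of 10 T cell genes 2 had all 4 arrays higher, near that background share, with a median of 0.34, and Zap70, a kinase of T and NK cells, rose with the block (1.01). Cd3e, a chain of the T cell receptor complex, read 9.7 and 56.2 in CBA, 38.5 and 11.5 in Xid and 17.0 and 62.6 in Btk KO, with all groups overlapping. Of 11 dendritic cell genes 1 was higher and 2 lower, against 10.2% and 7.47% of all named genes. Their medians were 0.25 in Xid and 0.23 in Btk KO, so this list did not share the order of the NK and erythroid lists. Of 11 stromal and endothelial genes 3 were higher (median 0.24), and of 3 platelet genes 2 were lower (-0.08). Of the 82 named genes that rose with the block, counting any probe set, 26 stand in a list of another cell type and 17 of these in the macrophage list. Measured members of these lists, out of 5596 named genes, numbered 27 for macrophage, 18 for erythroid, 15 for NK and 14 for neutrophil genes. The dendritic cell and the stromal lists held 11 each, the T cell list 10 and the platelet list 3. A gene can stand in several lists. The part of other cell types in the differences was not tested.

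Genes of the B lineage were bright on every array, as the label of the cells has it. Cd79a, a chain of the B cell receptor, read 5287.4 and 6004.4 in CBA, 5533.1 and 4438.1 in Xid and 3066.3 and 3982.2 in Btk KO. Ms4a1, which encodes CD20, read 4514.8 and 4636.8 in CBA, 5588.5 and 3963.8 in Xid and 4131.8 and 3503.8 in Btk KO. Xid overlapped with CBA in both genes. Of 16 B lineage genes 2 had all 4 arrays higher and 0 lower, against 10.2% and 7.47% of all named genes. Their medians were -0.05 in Xid and -0.27 in Btk KO. The list summed to 35588 and 36339 in CBA, 39316 and 30739 in Xid and 30417 and 28020 in Btk KO.

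Of 30 genes of B cell receptor signalling, 0 had all 4 arrays above CBA and 6 had all 4 below, with a median of -0.19. Over all named genes the shares were 10.2% above and 7.47% below. Nfatc1, the calcium-dependent factor at the end of this pathway, read 322.7 and 578.5 in CBA, 107.3 and 176.7 in Xid and 80.8 and 183.5 in Btk KO. The lines overlapped with each other well below CBA, and the pooled difference was -1.69 (limma adjusted p = 0.0054 with the block, 0.22 without). Btk was the other member that fell with the block. The inhibitory receptor Cd72 read 1093.9 and 818.6 in CBA, 742.6 and 646.7 in Xid and 439.2 and 521.4 in Btk KO. Cd22, another inhibitory receptor, read 990.5 and 912.7 in CBA, 752.9 and 687.3 in Xid and 589.3 and 607.0 in Btk KO. With Ptpn6, the phosphatase they recruit, they were the 3 members in the falling order, and the pooled differences of -0.71, -0.53 and -0.55 passed in neither fit. The kinase gene Blk (-0.60) and the lipid phosphatase gene Inpp5d (-0.20) were below CBA on all 4 arrays without passing. Syk, Blnk and Plcg2, partners of Btk at the receptor, overlapped with CBA.

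Among the lists of B cell subsets, follicular genes held 1 call. Of 12 measured 0 were higher and 3 lower (10.2% and 7.47% of all named genes), with a median of -0.14. Cxcr5, the receptor that guides B cells to the follicle, read 419.4 and 399.2 in CBA, 227.2 and 285.7 in Xid and 204.8 and 228.7 in Btk KO. It was below CBA on all 4 arrays and fell by 0.79 with the block (limma adjusted p = 0.046). Of 13 marginal zone genes 2 were higher and 3 lower (median -0.04). Cd9, a tetraspanin, read 176.5 and 125.3 in CBA, 43.0 and 65.7 in Xid and 60.1 and 105.3 in Btk KO without passing, and the scavenger receptor Ackr3 rose by 1.21 with the block. Of 15 immature and transitional genes 6 were higher and 1 lower, against 10.2% and 7.47% of all named genes, with a median of 0.44. Ly6d, a surface protein of B cell precursors, read 931.5 and 948.7 in CBA, 1743.2 and 1311.6 in Xid and 2059.7 and 1512.2 in Btk KO. It was above CBA on all 4 arrays, at 0.79, and passed in neither fit. Of 28 NF-kB and NFAT response genes 2 were higher and 4 lower (median -0.05), and Bcl2 fell with the block. Of 6 B-1 genes 1 was higher and 1 lower (0.35).

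Of the 28 named genes that fell with the block on any probe set 10 were immunoglobulin variable segments, 7 of them kappa, a group formed after the values were seen. In all 20 variable segments were measured, or 0.357% of the 5596 named genes. By the brightest probe set of each, 7 of the 20 fell with the block, against 23 of 5596 named genes (0.411%). On all 4 arrays 12 of the 20 lay below CBA, against 7.47% of named genes, and the median was -0.98. Segments can share signal, so they are not independent of each other. Among 6 measured constant regions and Jchain, Jchain fell and Igha rose with the block by the brightest probe sets (list median -0.26). Ighm, the constant region of IgM, fell with the block on 1 of its 9 kept probe sets (-1.44), while another lay above CBA on all 4 arrays (0.93) and the brightest overlapped (-0.22). Igha, the constant region of IgA, read 998.2 and 380.3 in CBA, 1575.7 and 802.3 in Xid and 3138.5 and 1927.9 in Btk KO. It was higher in each run than CBA of that run, but Xid replicate 2 lay between the CBA arrays. Of 13 plasma cell and secretory genes 1 was higher and 3 lower (median -0.16), against 10.2% and 7.47% of all named genes. Dnajb9, a chaperone of the endoplasmic reticulum, rose by 0.90 with the block on its brighter probe set, the other overlapping (0.41). Of 21 genes of MHC class II and antigen presentation 3 were higher and 1 lower (-0.07), against the same shares. Ctsb was the 1 call by the brightest probe sets, and the 1 Ctse probe set described above was called as well. Against the same shares, ribosomal protein genes had 0 of 16 higher and 1 lower (-0.07). X chromosome neighbours of Btk had 0 of 4 higher and 1 lower (0.13).

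**Figure D4:**
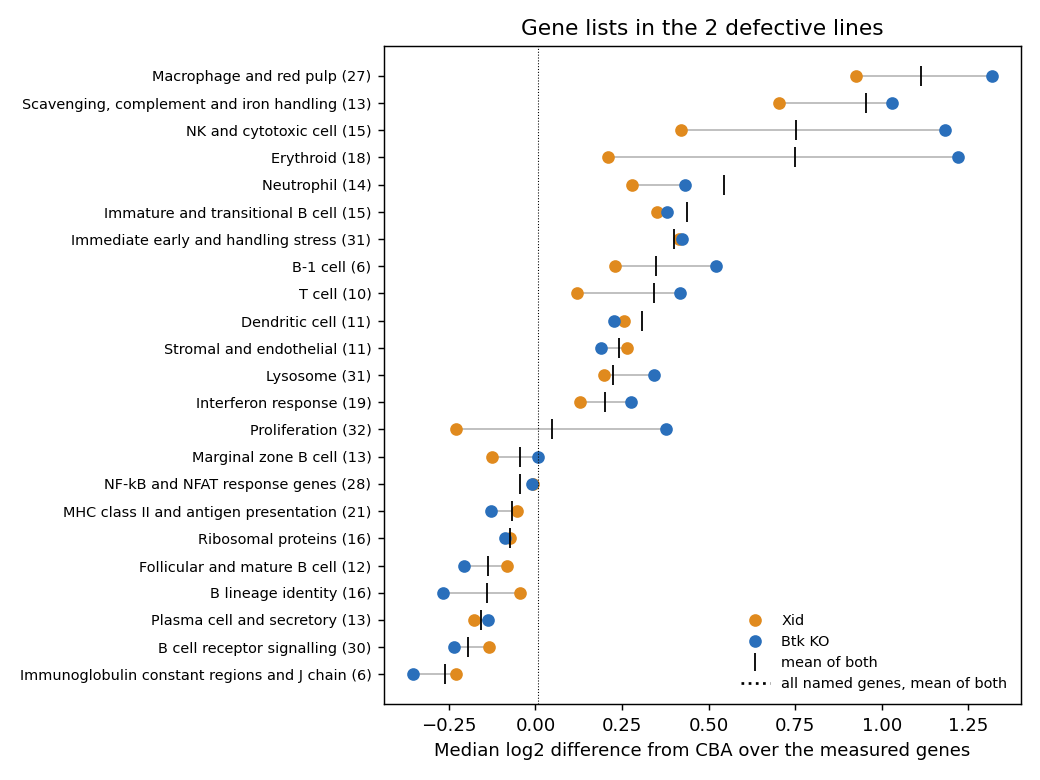
For each list with at least 6 measured genes (their number in brackets), the x axis gives the median log2 difference from CBA over the genes, for Xid (orange), Btk KO (blue) and the mean of both lines (black tick); the dotted line is the median over all named genes. Macrophage and red pulp genes stand highest, at 0.92 in Xid and 1.32 in Btk KO, and erythroid genes reach 1.22 in Btk KO with 0.21 in Xid.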

How the data were processed

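The deposited intensity values, 1 per probe set, were already scaled by the authors: the mean without the outer 2% was 100.06 on each array. Which software summarised the probes is not given in the sources used here. From these values the 66 control probe sets were left out, log2(intensity + 6) was taken, and probe sets with a mean at or above the 40th percentile were kept. Of 12422 probe sets 10833 have 1 symbol, 396 several and 1193 none, and 10817 were matched to current symbols by gene number. limma 3.58.1 (R 4.3.3) fitted 3 group means with an intensity trend and Benjamini-Hochberg adjustment over all 7453, leaving 3 residual degrees of freedom, or 2 with the block. Intervals are from the fit without the block. The fit without the block was tested on simulated data in which the arrays varied independently of each other. The fit with the block was not tested in this way. A single value of 2 against 4 arrays has 15 splits, so an exact permutation test could not go below p = 0.133.

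Deviations from the group means of arrays with the same number correlated at 0.31 (CBA with Xid), 0.37 (CBA with Btk KO) and 0.44 (Xid with Btk KO), so the numbers were taken to pair the arrays. The design text gives new RNA from new mice for the second set, so replicates are separate preparations.

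Members and gene lists were chosen with earlier results of these data known. Genes were named by a rule: Btk; the 12 higher and 12 lower non-overlapping genes with the smallest pooled p; the 8 rising and 8 falling genes with the smallest p between the lines; the 5 most alike in each direction; the 5 on opposite sides of CBA; up to 4 non-overlapping genes per list; marker genes; and the 2 just inside and outside the rule. Other named list members (Csf1r, C1qa, Fth1, Tfrc, Camp, S100a9, Klrd1, Ccl5, Zap70, Ighm, Blk, Inpp5d, Syk, Blnk, Plcg2, Igha) were named after their values were seen. A further marker is not reported here. Alternatives were quantile normalization, median centring, other filters and pseudocounts, the block, no trend, 2 groups and each array left out.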

Additional observations from a re-analysis of the deposited data

Results flagged for a closer look

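The difference of Btk KO from Xid passed with the run block in limma for 14 probe sets, which are given here as log2 differences. Named genes higher in Btk KO were Camp (2.42), Ctse (3.55), Ifi202b (3.06) and S100a8 (2.72), and named genes lower in Btk KO were Btk (-1.72), Slc1a5 (-3.13) and Fli1 (-1.92). Slc1a5, a transporter of neutral amino acids, read 25.9 and 29.2 in CBA, 199.9 and 173.9 in Xid and 7.0 and 31.3 in Btk KO. Fli1, a transcription factor of the Ets family, read 31.0 and 51.9 in CBA, 101.9 and 160.3 in Xid and 22.9 and 37.6 in Btk KO. In both genes Xid was high and Btk KO lay beside CBA. A probe set without a symbol read 101.9 and 84.3 in CBA, 53.0 and 82.6 in Xid and 1692.0 and 4380.4 in Btk KO (5.24). The 3 symbol-free probe sets called lower for the pooled difference without the block, which may read the same transcript, differed by 2.95, 1.37 and 2.15. A probe set with several symbols read 9.6 and 11.4 in CBA, 391.2 and 229.4 in Xid and 8.2 and 1.9 in Btk KO (-4.85), and 2 others with several symbols differed by -3.30 and -1.33.

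For 9 further genes the lines lay on opposite sides of CBA on every array, and whether the effects differ was not tested beyond the fit of Btk KO against Xid, which these genes did not pass. Xid was above and Btk KO below CBA in Mrc2 (-1.63 for Btk KO minus Xid), Mbd4 (-1.35), Map2k1 (-0.78), Med1 (-1.02) and Ifna9 (-1.22). Map2k1, the kinase MEK, read 196.9 and 209.5 in CBA, 346.8 and 332.4 in Xid and 195.7 and 195.8 in Btk KO, so its Btk KO arrays lay just under CBA. Btk KO was above and Xid below CBA in Wls (1.72), Epop (1.43), Cdh3 (1.19) and Serpinf1 (1.67). Wls, the carrier of Wnt proteins, read 56.3 and 61.1 in CBA, 56.0 and 33.5 in Xid and 174.9 and 140.3 in Btk KO. Groups of 2 arrays are too small to check for a single array far from the others.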

How the results depend on the processing

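Counts of calls depended on the fit. For the pooled difference (7 higher, 4 lower), limma called 11 higher with the filter at the 60th percentile, 96 and 48 with the replicate block, and 95 and 70 with the block and without Btk KO replicate 1, an alternative chosen after seeing the data. It called 0 and 0 without the intensity trend (545 at an unadjusted p below 0.05) and 0 and 0 with 2 groups (510); the cause was not tested. For Btk KO against Xid (2 higher, 1 lower) it called 4 higher with median centring, 0 lower with the 60th percentile filter, 0 lower with pseudocount 1, 5 and 3 with pseudocount 32, 8 and 6 with the block, 1 higher without the trend, and 7 and 5 with the block and without Btk KO replicate 1. Leaving out 1 array gave 0 to 21 higher and 0 to 18 lower pooled calls, and 0 to 10 and 0 to 19 between the lines; the upper ends came without Btk KO replicate 2, when the array with the Gapdh ratio of 10.4 was the Btk KO group.

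The non-overlap counts (732 and 545) were 1203 higher without the filter, 434 higher with the 60th percentile filter, and 1251 and 1088 when arrays were compared within each run (replicate block). The rising order (238) was 143 with the 60th percentile filter. With 1 array fewer, which makes the rule easier to meet, the counts were 934 to 1978 higher, 718 to 1451 lower, 342 to 519 rising and 247 to 411 falling. Quantile normalization kept 593 of the 732 and 494 of the 545, and median centring 645 and 522. Single genes, gene list medians and the call counts of each line against CBA were also compared. Of these values 2558 stayed the same, which for a single gene means its direction and side of the threshold. Among single genes 136 values newly passed, 59 no longer passed and 6 reversed. The 110 values that moved were list medians or call counts. The reversals were Cd3e (-0.019 with quantile normalization, and -0.90 to 1.08 with 1 array left out) and Ms4a1 (0.0013 with quantile normalization, and -0.24 to 0.011 with 1 array left out).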

Other observations

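Proliferation genes lay on different sides of CBA in the 2 lines by their medians, at -0.23 in Xid and 0.38 in Btk KO over 32 measured genes. Both Btk KO arrays lay above both Xid arrays in 20 of the 32 and below both in 1, against 811 and 701 of 5596 named genes. For Btk KO against Xid limma with the block called 0 of the 32 higher and 0 lower. The pooled comparison averages the 2 lines, so opposite signs cancel in it. There limma called 0 with or without the block, with 0 at an unadjusted p below 0.05 in either fit. Interferon response genes had all 4 defective arrays above CBA in 9 of 19, against 573 of 5596 named genes (10.2%), with a median of 0.20 and 0 pooled calls by limma with or without the block (2 and 3 at an unadjusted p below 0.05, without and with it). Rsad2, the antiviral protein viperin, read 22.8 and 20.9 in CBA, 36.3 and 33.5 in Xid and 139.5 and 60.1 in Btk KO, with no overlap between the groups. Immediate early and handling stress genes had 7 of 31 higher, against the same 10.2%, and their median of 0.40 was 0.58 in run 1 and 0.08 in run 2. Fos, the early response factor, read 516.8 and 727.9 in CBA, 1863.0 and 957.1 in Xid and 1254.4 and 785.6 in Btk KO, with the higher value of each defective line in run 1.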
